A study of Caenorhabditis elegans with 18 samples.

Results

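The genes described here are the major sperm protein genes (msp) and 4 smaller sperm gene families of *Caenorhabditis elegans*, the sperm-specific families P, Q and S (ssp, ssq and sss) and group D of the nematode-specific peptide family (nspd). They were chosen by name alone: every gene whose WormBase symbol is 1 of these 5 prefixes, a hyphen and a number. The rule found 58 of 46748 counted genes, namely 31 msp, 12 ssp, 4 ssq, 1 sss and 10 nspd genes. All 58 are annotated as protein-coding. The symbol ssp-9 is carried by 2 genes, which are kept apart by their identifiers (WBGene00006038 and WBGene00006040).

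RNA was sequenced after poly(A) selection from whole worms grown at 15 °C from the egg and taken as day-1 adults, either at once (control) or after 24 h at 2 °C (cold), so that cold worms were also older by 24 h. The wild type was strain N2 (WT, n = 6 per condition), and the mutant was strain CF2473, which carries the deletion allele ire-1(ok799) of IRE-1, a stress sensor of the endoplasmic reticulum (n = 3 per condition). Replicates 1 to 3 of each group formed experiment 1, and replicates 4 to 6, of WT only, formed experiment 2. The labels do not say whether replicates were separate cultures, so p-values measure the spread between these libraries, which may be technical.

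Sperm of this worm have no flagellum and crawl by assembling filaments of MSP, a small cytoskeletal protein that does the work actin does in other crawling cells. MSP is also released by sperm as a signal that makes oocytes mature and the gonadal sheath contract, in part through the Eph receptor VAB-1. Hermaphrodites make sperm in the last larval stage and then switch to oocytes, so that messenger RNA of these families is mainly a product of spermatogenesis and not of the adult germ line. The roles of the ssp, ssq, sss and nspd proteins are little known beyond their expression in sperm.

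Libraries held 20621965 to 29518450 counts in experiment 1 and 10449794 to 16814732 in experiment 2. The 58 genes together took 70 counts in WT cold replicate 6 and 72897 in ire-1 control replicate 1, or 0.000416% to 0.247% of a library. In WT the ire-1 gene stood at 76.4 to 202 CPM without cold and 170.4 to 224 with it, and in the mutant at 37.9 to 55.7 and 42.97 to 61.1, which pools reads inside and outside the deleted segment. Control replicate 1 and cold replicate 2 of both strains stood apart from the rest of their groups in the summed level of the families. For the unpaired tests, medians of the family genes are given with and without these 4 libraries. Spreads, orders by mean level and paired fits are given with them only. In RNA of whole worms, fewer sperm-producing cells and less RNA per cell cannot be told apart.

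The levels differed far more between libraries of 1 group than between groups. Levels are read counts relative to the library total (CPM), scaled by TMM factors, which correct for composition. The msp genes together stood at 956, 7.26, 4.40, 21.7, 95.1 and 5.40 CPM in WT control replicates 1 to 6. In WT cold they stood at 4.77, 271, 20.2, 1.08, 60.8 and 1.38 CPM. In ire-1 control replicates 1 to 3 they stood at 1168, 26.9 and 29.04 CPM, and in ire-1 cold at 12.3, 994 and 20.6. Replicate 1 was therefore high in the control of both strains and replicate 2 in the cold of both strains. In experiment 2 replicate 5 was the highest of both conditions. The groups overlapped in every comparison, and the highest WT control library was 217 times the lowest.

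**Figure D1:**
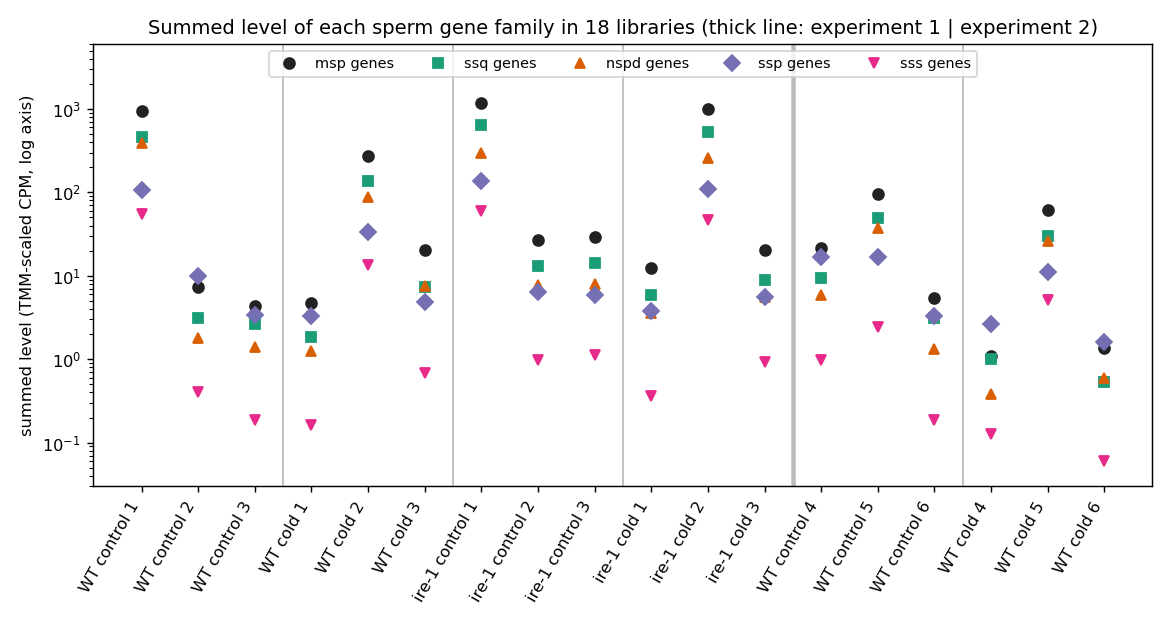
Summed level of each family in each library, in TMM-scaled CPM on a log axis, with 1 point per family and library and thin lines between groups. The msp sum runs from 1.08 to 1168 CPM, and each of the 5 families has its 4 highest sums in control 1 and cold 2 of both strains.

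The 31 msp genes lie in 3 groups on 2 chromosomes of WBcel235. A first group of 13 genes spans positions 4785898 to 5810330 of chromosome II, 9 lie between 5055631 and 5316906 of chromosome IV, and 9 lie between 9689015 and 10143740 of the same chromosome. These groups gave 45.9%, 24.2% and 29.9% of all msp counts. The chromosome II group kept 44.5% to 51.3% of the msp counts in the 12 libraries with at least 200 of them. The copies are nearly the same in sequence and 28 of the 31 have a coding model of 384 bases, and how reads matching several copies were counted is not given in the sources used here, so that values of single msp genes are uncertain and the sum is the firmer measure.

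msp-36 (WBGene00003432, chromosome IV, 10095433 to 10095816) had the highest level of the msp genes, averaged over the 18 libraries. Its lowest, median and highest level was 0.251, 1.10 and 75.3 CPM in WT control, against 0.0600, 0.905 and 22.4 in WT cold. It stood at 90.9, 2.78 and 2.23 CPM in ire-1 control and at 0.939, 73.1 and 1.67 in ire-1 cold. It made up 6.20% to 10.3% of the msp counts in the 12 libraries with at least 200. Next came msp-76, msp-33, msp-50, msp-59, msp-81, msp-64 and msp-40, which in WT control replicate 1 lay between 50.5 and 63.2 CPM. msp-33 overlaps gst-9 on the other strand, and reads of the pair cannot be told apart, as the strand setting is not stated.

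The array also held genes with almost no reads. msp-32 had no count in any of the 18 libraries. msp-58 had 8 counts in all, msp-79 had 18 and msp-74 had 26, and msp-58 and msp-74 have short models of 234 bases. The upper limit that 3 counts allow was 0.102 to 0.287 CPM per library. The other 27 msp genes had totals from 475 (msp-63) to 7699 counts (msp-36).

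The ssq genes were the second family by count. ssq-2 (WBGene00006051, chromosome IV, 4996142 to 4997559) had the highest mean CPM of all 58 genes. Its lowest, median and highest level was 0.484, 1.83 and 165 CPM in WT control, against 0.120, 1.51 and 51.1 in WT cold. It stood at 225, 4.57 and 5.03 CPM in ire-1 control and at 2.19, 204 and 3.38 in ire-1 cold. ssq-4 was close to it, at 155 CPM in WT control replicate 1 and 224 in ire-1 control replicate 1, and overlaps T28H11.7 on the other strand. ssq-1 stood at 108 and 137 CPM in the same libraries, and ssq-3, the lowest of the 4, at 37.3 and 53.5. The single sss gene, sss-1 (chromosome IV, 9892739 to 9893749), stood at 55.1 and 59.98 CPM there and at 0.989 and 1.12 in the other ire-1 control libraries.

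The nspd genes encode very short peptides, with coding models of 213 to 222 bases. nspd-1 stood at 95.03, 0.312, 0.112, 1.13, 10.7 and 0.189 CPM in WT control replicates 1 to 6. In WT cold it stood at 0.285, 19.5, 1.80, 0.0636, 7.28 and 0.0600. It stood at 71.7, 1.52 and 1.80 CPM in ire-1 control and at 0.716, 67.0 and 1.62 in ire-1 cold. nspd-2, nspd-7 and nspd-5 had the same high libraries, with 78.7, 60.7 and 40.2 CPM in WT control replicate 1, and nspd-8 had no count in any library. Unlike the msp genes, the nspd genes are spread over chromosomes I, II, III and IV.

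Per length of the gene model, nspd-1, nspd-2 and nspd-7 led, but not the other nspd genes. Among the 9 libraries with at least 1000 counts of the 58 genes, nspd-1 had the highest CPM per kilobase in 8, with 446 in WT control replicate 1 and 336 in ire-1 control replicate 1. In the remaining one, ire-1 control replicate 2, nspd-2 led with 7.68 CPM per kilobase. nspd-2 ranked between 1 and 3 in all 9 libraries and nspd-7 between 2 and 5, while nspd-9 ranked between 25 and 42 and nspd-6 between 36 and 45. msp-36, the highest msp gene, ranked between 3 and 8, at 196 CPM per kilobase in WT control replicate 1. ssq-2, the highest by CPM, stood at 125 CPM per kilobase there. The models of 52 of the 58 genes have lengths that are multiples of 3, so that these are coding lengths without untranslated regions, and the order may differ with full transcripts.

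The families took different shares of the counts from library to library. In the 16 libraries with at least 200 counts of the 58 genes, msp took 32.3% to 51.1% of those counts, ssq 13.9% to 27.8%, nspd 7.94% to 19.7% and sss 1.23% to 3.86%. The lowest nspd share, in WT control replicate 2, had a 95% Wilson interval of 5.88% to 10.6%, and the highest, in WT control replicate 1, one of 19.4% to 20.01%. The ssp share ranged more widely, from 5.43% to 11.9% in the 9 libraries with at least 1000 counts of the 58 genes and from 13.5% to 44.05% in the other 7. Much of this range came from ssp-37 alone. It held 180 of 222, 61 of 90 and 174 of 237 ssp counts in WT control replicates 2, 3 and 4, against 200 of 3055 in WT control replicate 1. Where ssp-37 is a large part of the total, it also lowers the shares of the other families.

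**Figure D2:**
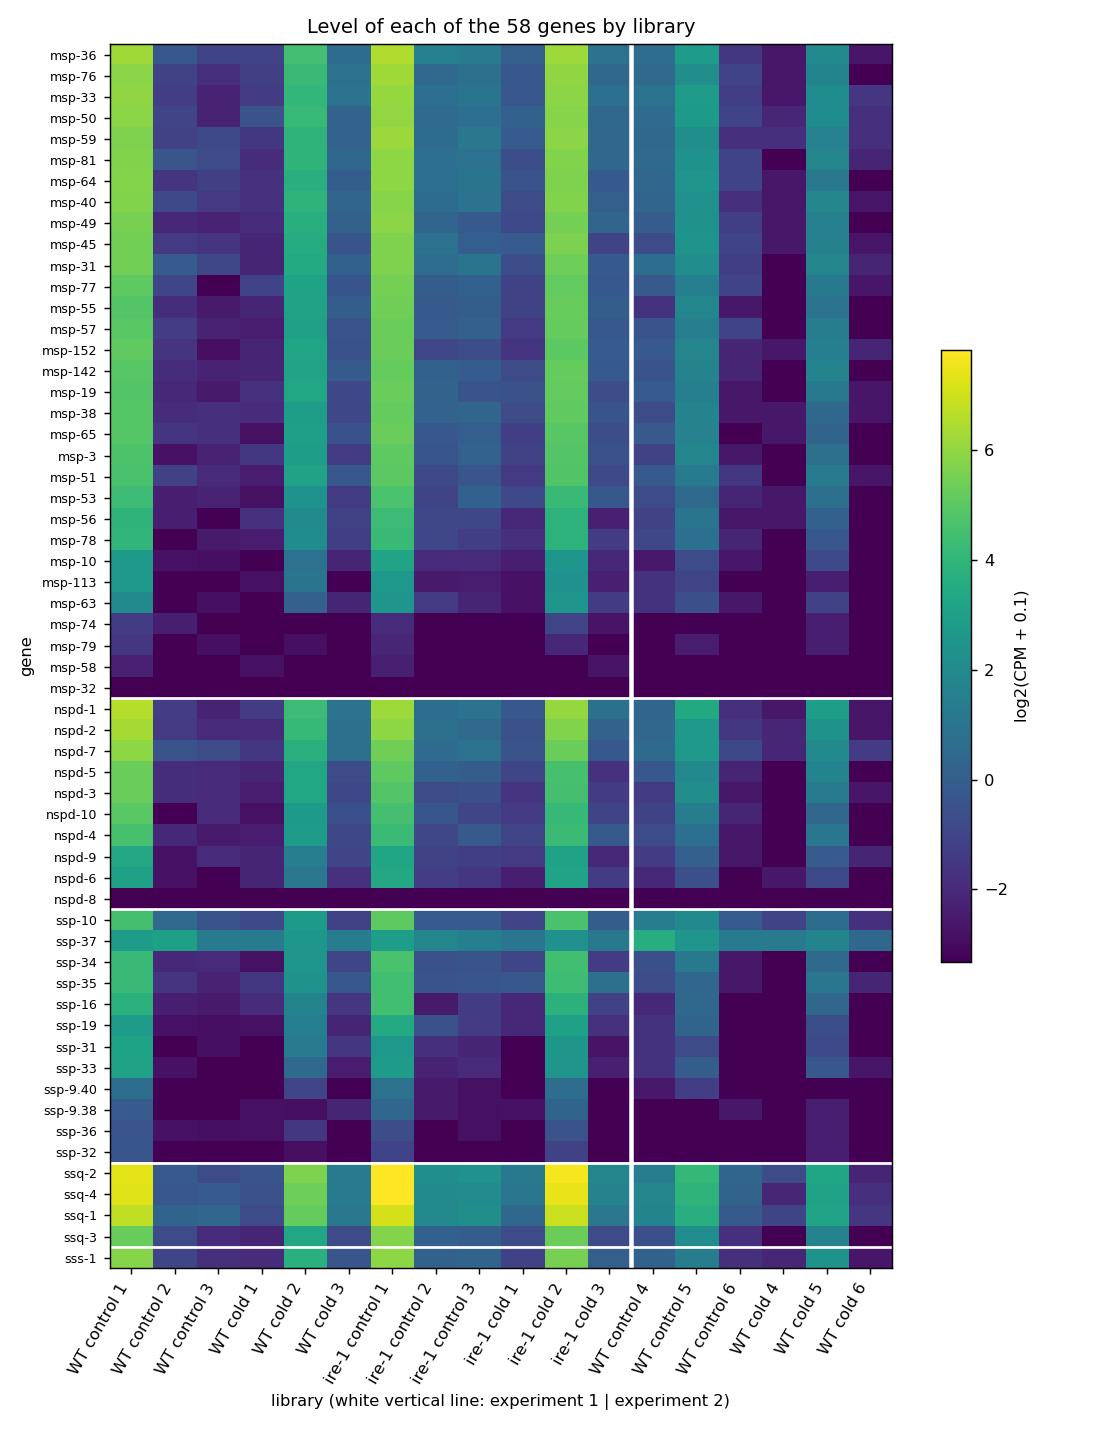
Level of each of the 58 genes (vertical axis, by family and by mean level) in each of the 18 libraries (horizontal axis), as log2(CPM + 0.1) in colour. Bright columns mark control 1 and cold 2 of both strains, and ssp-37 ranges from 1.26 to 12.2 CPM over the libraries.

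Of the 49 of the 58 genes that averaged 1 CPM or more, an ssp gene varied least between libraries of a group. ssp-37 (WBGene00012211, chromosome I, 12561040 to 12561560) stood at 7.01, 8.02, 2.27, 12.2, 5.47 and 2.26 CPM in WT control replicates 1 to 6 and at 2.24, 5.64, 2.57, 2.23, 3.15 and 1.26 in WT cold. It stood at 7.14, 3.31 and 2.71 CPM in ire-1 control and at 1.97, 4.86 and 2.16 in ire-1 cold. Its highest library was WT control 4, where the msp genes stood at only 21.7 CPM together. The other ssp genes had the same high libraries as msp: ssp-10 stood at 22.8 CPM in WT control replicate 1, 33.2 in ire-1 control replicate 1, 6.68 in WT cold replicate 2 and 24.5 in ire-1 cold replicate 2. Across the libraries outside those 4, ssp-10 ranged from 0.180 to 3.96 CPM. ssp-34 and ssp-35 followed it, and ssp-9 (both genes), ssp-32 and ssp-36 had 42 to 149 counts in all.

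The spread was measured as the SD of log2(CPM + 1) within groups of 1 experiment. It had a median of 2.06 over the 49 of the 58 genes that averaged 1 CPM or more, against 0.374 over all 11298 such genes. Some of the 49 passed that cut only through control replicate 1 and cold replicate 2 of both strains, which also widen the spread. An example is msp-63, which averaged 1.00 CPM, with 5.62 in ire-1 control replicate 1 and at most 0.555 outside those 4 libraries. The cut thus favours a wide spread, and the spread without those libraries was not computed. Of the 100 genes with the widest spread, 31 were among the 58. ssq-2 had 2.82, nspd-1 2.56 and msp-36 2.40. The lowest value was that of ssp-37, at 0.686, still wider than 86.7% of the 11298 genes. The next was that of msp-63, at 1.02, wider than 94.5% of them.

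The nspd share among nspd and msp counts was measured because both families followed the same libraries. It was 28.9% in WT control replicate 1 (95% Wilson interval 28.4% to 29.3%) and 20.4% in ire-1 control replicate 1 (20.02% to 20.8%). In cold replicate 2 it was 24.7% in WT (23.9% to 25.5%) and 20.7% in ire-1 (20.3% to 21.2%). All 6 ire-1 libraries lay between 20.4% and 22.6%. WT libraries lay between 19.6% and 30.3%, so the strains overlapped. WT control replicates 2 and 6, with 203 and 107 counts, had the lowest shares, 19.7% and 19.6%. WT control replicate 5 and WT cold replicate 5 had 28.1% and 29.8%. Intervals cover counting error only, since reads carried no molecular identifiers, and 2 single libraries compared by their reads say nothing of the strains.

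**Figure D3:**
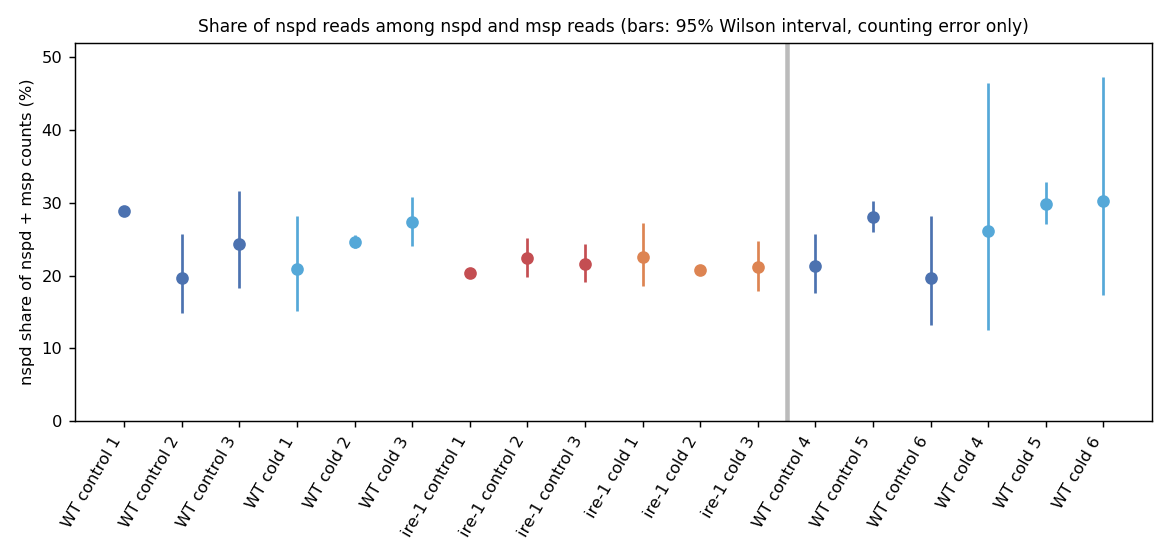
Share of nspd counts among nspd and msp counts (percent, from 0) by library, with 95% Wilson intervals for counting error; the grey line separates experiments 1 and 2. The 6 ire-1 libraries (red and orange) lie between 20.4% and 22.6% and the WT libraries (blue) between 19.6% and 30.3%.

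Cold in WT asked whether 24 h at 2 °C changed these RNAs. None of the 58 genes passed at an adjusted p of 0.05. The msp sum had a lowest, median and highest level of 4.40, 14.5 and 956 CPM in the control and of 1.08, 12.5 and 271 in the cold. Of the 58 genes, 25 passed the filter on low counts, and 0 of these were called by edgeR's quasi-likelihood test with Benjamini-Hochberg adjustment, while 13.1% of all 11766 tested genes were called. At an unadjusted p under 0.05 there was 1 of the 25, against 32.5% of all genes, and DESeq2 also called 0. The estimates of these 25 had a median log2 difference of -1.52, from -2.03 to -0.98, against -0.07 over all tested genes. All 25 were below 0, as were 54.7% of all genes; they draw on the same 12 libraries, and the genes that passed the filter are not all 58.

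The median was -1.84 in experiment 1 alone and -0.95 in experiment 2 alone, with 0 called in each. The estimates rested on WT control replicate 1. Without that library the median of the tested genes was 0.98, and without it and WT cold replicate 2 it was -0.46. Leaving out WT cold replicate 2 alone gave -2.60, WT cold replicate 5 alone -2.63, and WT control replicate 5 alone -0.94. The median SE of the 25 estimates was 1.42, against 0.247 over all tested genes. msp-64, the lowest, had a log2 difference of -2.03 ± 1.42 (SE) and an adjusted p of 0.334 by edgeR. msp-36 had -1.59 ± 1.41 (adjusted p = 0.448 by edgeR), nspd-1 -1.63 ± 1.605 and ssq-2 -1.52 ± 1.45.

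The steadiest of these genes, ssp-37, came nearest to the threshold. In experiment 1 its WT control libraries stood at 7.01, 8.02 and 2.27 CPM and its WT cold libraries at 2.24, 5.64 and 2.57. In experiment 2 the values were 12.2, 5.47 and 2.26 against 2.23, 3.15 and 1.26. The groups overlapped in both experiments. Its log2 difference was -1.22 ± 0.48 (SE), with an adjusted p of 0.106 by edgeR and 0.0563 by DESeq2. Without WT control replicate 3 edgeR gave -1.45 with an adjusted p of 0.0439, the only setting with a call among the 58. ssp-10 followed, at -1.94 ± 1.01 with an adjusted p of 0.198 by edgeR.

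In ire-1 the cold and control levels lay close together on average but not library by library. The filter kept 52 of the 58 genes, of which edgeR and DESeq2 called 0, with 0 at an unadjusted p under 0.05 (7.03% of all genes), while 0.0558% of 14344 tested genes were called by edgeR. The median log2 difference of the 52 was -0.27, against -0.04 over all genes, with a median SE of 2.31. It was 3.57 without ire-1 control replicate 1, -4.66 without ire-1 cold replicate 2, and -0.78 without both high libraries of each strain. ssp-37 had -0.55 ± 0.64 (SE). The difference between the cold responses of the strains had a median of 1.67 ± 3.29 (median SE), and was -1.71 without the 4 high libraries. Of the 52 genes, 0 were called by edgeR or DESeq2 and 0 had an unadjusted p under 0.05 (1.37% of all genes), and 0% of all genes were called by edgeR. With the numbers paired the median was 0.36, and 1 of 52 had an unadjusted p under 0.05, against 5.83% of all genes.

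**Figure D4:**
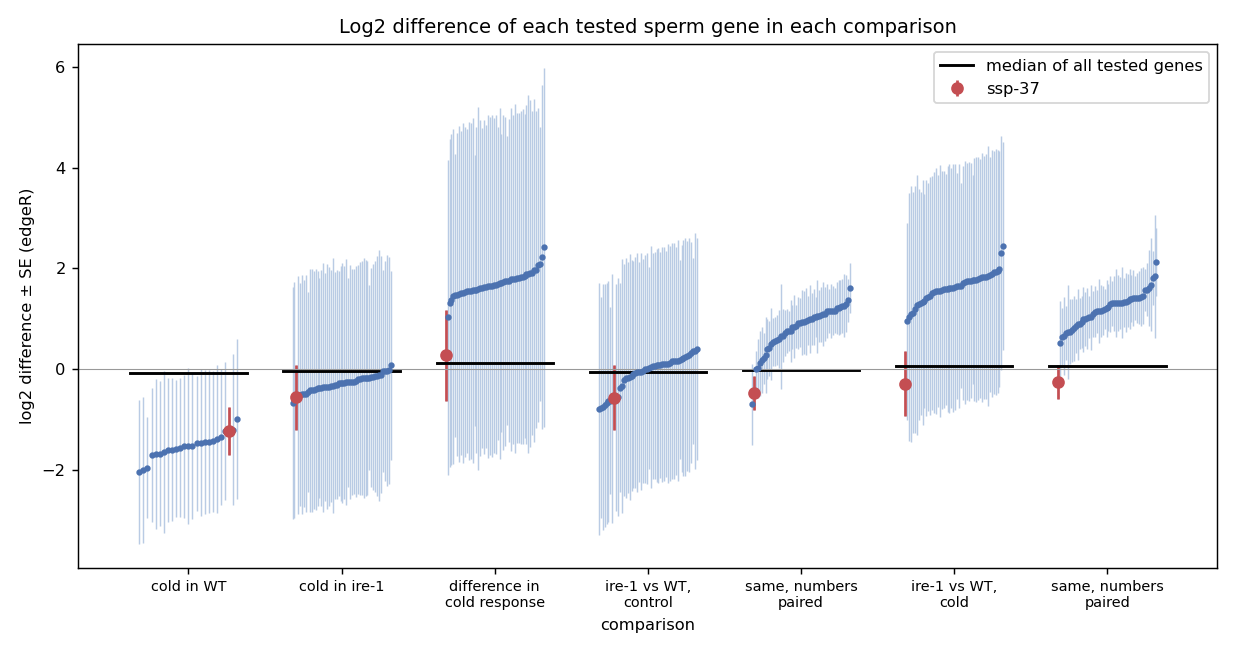
Log2 differences from edgeR for each tested gene, with SE derived from the F statistic of the test. Genes are sorted within each comparison, with ssp-37 in red and the median of all tested genes as a black line. Bars are wide except for ssp-37 and for the fits that pair libraries of the same number, where 50 of 52 (control) and 51 of 52 (cold) estimates lie above 0. Over all tested genes 49.8% and 56.1% lie above 0, and the 52 genes share the same libraries and are not independent.

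The strains were also compared directly. In each of the 6 pairs of libraries of experiment 1 with the same number and condition, the msp sum was higher in ire-1 than in WT. In the control it was 1168 against 956, 26.9 against 7.26 and 29.04 against 4.40 CPM. In the cold it was 12.3 against 4.77, 994 against 271 and 20.6 against 20.2 CPM. The ratio of ire-1 to WT was thus 1.22, 3.71 and 6.61 in the control and 2.57, 3.67 and 1.02 in the cold. The labels do not say that equal numbers mark pairs. Under another matching the order can turn, as ire-1 cold replicate 1, at 12.3 CPM, lay below WT cold replicate 3, at 20.2 CPM. The 2 ire-1 control libraries that did not stand apart were above both such WT libraries of experiment 1, but below WT control replicate 5 at 95.1 CPM.

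The ssq sum was also higher in ire-1 in 6 of 6 pairs, with ratios from 1.22 to 5.41, as was sss-1, from 1.09 to 6.00. The nspd sum was higher in 4 of 6 pairs, and lower in control replicate 1 (299 against 388 CPM) and cold replicate 3 (5.54 against 7.58). The ssp sum was lower in control replicate 2 (6.47 against 9.89 CPM), where ssp-37 stood at 3.31 in ire-1 and 8.02 in WT. Of the genes with a count in either library, 40 of 56, 48 of 53 and 52 of 53 were higher in ire-1 in control replicates 1 to 3, and 42 of 50, 54 of 55 and 29 of 52 in cold replicates 1 to 3. For the 11298 genes that averaged 1 CPM or more over the 18 libraries, the share was 65.4%, 49.5% and 49.04% in the control. In the cold it was 47.4%, 57.2% and 44.3%. That cut differs from the one for the families, so the shares are not strictly alike. Each tally rests on a single pair of libraries in which these genes rise and fall together. Many counts were also low, with 3 for msp-33 and 1 for msp-152 in WT control replicate 3.

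No gene of the families passed the test between strains. Without pairing, 0 of 52 were called in the control by edgeR or DESeq2, with 0 at an unadjusted p under 0.05 (12.1% of all genes), where 0.0627% of genes were called by edgeR; the median was 0.02. In the cold 0 of 52 were called by either tool, with 0 at an unadjusted p under 0.05 (7.65% of all genes), where 0.0139% of genes were called by edgeR; the median was 1.62. With the numbers paired within each condition, 0 of 52 were called in the control and 0 in the cold. At an unadjusted p under 0.05 there were 11 of 52 in the control, where 24.8% of all genes were, and 28 of 52 in the cold, where 17.4% of all genes were. The 52 genes follow the same few libraries and are not independent, and the pairing was added after the data were seen. Some passed the filter on low counts through the 4 high libraries. ssp-36 had 19 counts in WT control 1, 7 in WT cold 2, 17 in ire-1 control 1 and 14 in ire-1 cold 2, and at most 1 elsewhere. The paired fit called 2.72% of genes in the control and 0.153% in the cold.

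The medians in the paired fit were 0.93 in the control and 1.22 in the cold, against -0.0032 and 0.06 over all genes. ssq-2 came nearest in the control, at 1.61 ± 0.50 (SE) with an adjusted p of 0.0937 by edgeR, and ssp-35 in the cold, at 1.57 ± 0.42 with an adjusted p of 0.149. msp-36 had 1.17 ± 0.45 in the control and 1.11 ± 0.46 in the cold, with adjusted p of 0.145 and 0.250 by edgeR. ssp-37 had estimates below 0, at -0.47 ± 0.33 and -0.25 ± 0.33. Without the 4 high libraries and without pairing, the medians were 2.42 in the control and 0.46 in the cold, again with 0 called by edgeR.

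Most genes on 3 of 4 lists of other known sperm genes were also high in these 4 libraries. A gene was counted here if its level in the 4 libraries was in each case above both other libraries of its group in experiment 1. Of the 58 genes 52 met this, which only restates how the libraries were picked, by the summed level of the same genes; the exceptions were msp-32, msp-58, msp-74, nspd-8, ssp-37 and the ssp-9 gene WBGene00006038. It held for 12 of 15 genes of spermatid assembly and MSP filament control, 10 of 13 of sperm activation and 9 of 10 of the sperm surface and fertilisation. It held for 22.6% of the 11298 genes that averaged 1 CPM or more, a cut that the lists did not have. msd-4, an MSP domain protein gene, stood at 100.04, 25.0, 83.3 and 79.7 CPM in WT control 1 and cold 2 and in ire-1 control 1 and cold 2, and at most at 6.82 elsewhere. spe-15, a myosin gene of spermatid budding, stood at 43.3, 18.1, 80.3 and 60.1 CPM there and at 4.72 to 9.16 elsewhere. zipt-7.1, a zinc transporter gene and the highest of the activation list, did not follow, with its lowest level in WT control replicate 1, at 28.5 CPM against 57.9 to 90.1 in the other 17. The sum of that list was 84.6 CPM in WT control replicate 1, below the 93.4 of WT control replicate 2. spe-11, whose product the sperm brings to the embryo, stood at 20.6, 4.78, 23.2 and 18.2 CPM in the 4 libraries, in the order used for msd-4, and at most at 2.25 elsewhere.

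The sperm fate and spermatogenesis regulators (gld-1, the fem genes, fog-1, fog-3, cpb-1, spe-44, tra-1 and her-1) did not share this, as 0 of 10 met the count. gld-1, an RNA-binding regulator of the germ line, was lowest in WT control replicate 1, at 530.3 CPM, against 898 to 1678 in the other 17. spe-44, a transcription factor of the sperm programme, was also lowest there, at 9.60 CPM, against 14.3 to 25.7 in the other 17. spe-39, a gene of vesicle traffic counted among the assembly genes, was at 35.0 CPM there and at 62.5 to 106 elsewhere. In none of the 5 comparisons did a gene of the 4 sperm lists pass the test, and in WT cold 0 of the 10 surface genes passed the filter on low counts.

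Markers of other cells also differed between libraries. The sum of 15 oocyte and eggshell genes was 3085 CPM in WT control replicate 1, against 7982 to 16450 in the other 17 libraries, and 0 of the 15 were high in the 4 libraries. It was 7982 CPM in ire-1 control replicate 1 and 9219 in ire-1 cold replicate 2, below the rest of their groups, but in WT cold replicate 2 it was 10379, above WT cold replicates 3 and 5 at 9707 and 9425. rme-2, the yolk receptor of oocytes, stood at 147 CPM in WT control replicate 1 and at 684 to 1525 elsewhere. perm-2, an eggshell gene, stood at 573 CPM in WT control replicate 1, within the 451 to 1269 of the other 17. All 10 body wall muscle genes were above both other libraries of their group in experiment 1 in all 4, with sums of 7691, 5833, 10428 and 9675 CPM against 1163 to 4337 elsewhere. Over both experiments tni-3, a troponin gene, was an exception, at 19.8 CPM in WT cold replicate 2 and 21.8 in WT cold replicate 5. The unc-54 gene for muscle myosin reached 3571 CPM in ire-1 control replicate 1. By group, the muscle sum ranged from 1163 to 7691 CPM in control and 1660 to 5833 in cold WT worms, and from 2857 to 10428 and 3186 to 9675 in the mutant. The part of these cell types in the levels of the sperm families was not tested.

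**Figure D5:**
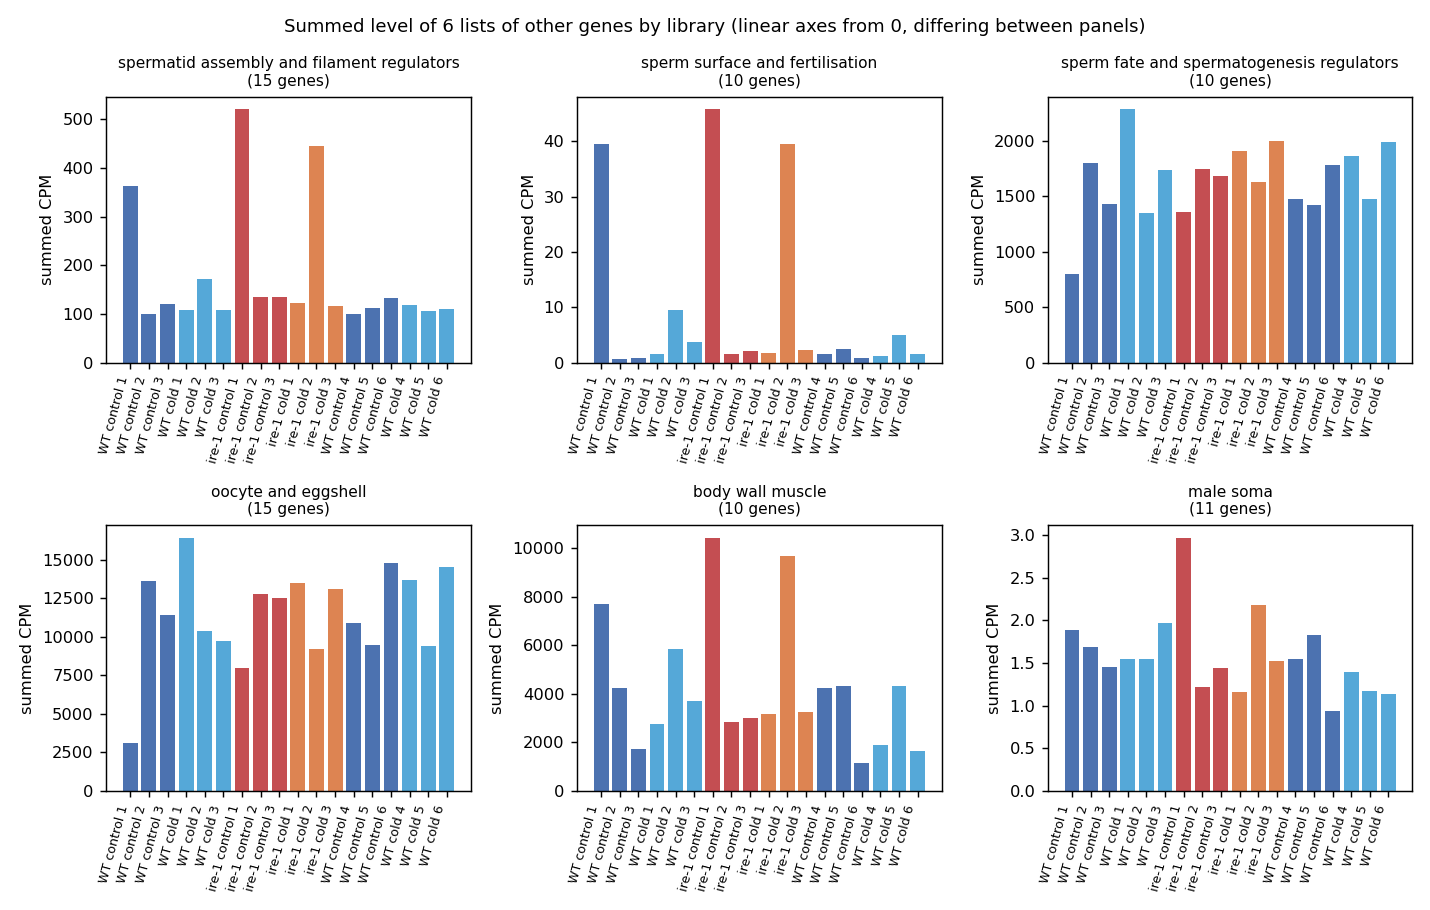
Summed CPM of 6 lists of other genes in each library (bars from 0, with axes that differ between panels; blue for WT, light where cold, red for ire-1, orange where cold). Spermatid assembly, sperm surface and muscle sums peak in the high libraries, and the oocyte sum is lowest in WT control 1, at 3085 CPM.

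Genes of male somatic tissue stayed near 0. The sum of 11 of them was 0.943 to 2.97 CPM per library. It was highest in ire-1 control replicate 1, then in ire-1 cold replicate 2 at 2.18, but WT cold replicate 2 at 1.54 lay below WT cold replicate 3 at 1.96. Of the 11 genes 1, mab-3, was high in all 4 libraries (9.09%, against the 22.6% given above). lov-1, pkd-2, cwp-1, cwp-2 and cwp-3, which mark male sensory neurons, were each at or below 0.0981 CPM in every library. Among 13 genes of the moult and the late larval cuticle 0 were high in all 4 libraries, with sums from 25.6 to 87.2 CPM over the 18. Genes that receive the MSP signal in oocytes and sheath were called lower in the cold in WT for 2 of 15 (gsa-1, a G protein alpha subunit, -1.28 ± 0.31; kin-2, a protein kinase A subunit, -1.06 ± 0.27), with adjusted p of 0.0188 and 0.0234 by edgeR. vab-1, the MSP receptor, was lowest in WT control replicate 1 at 57.4 CPM, against 125 to 245 elsewhere. With cold set against control in WT, all 6 yolk genes and 6 of 9 intestine genes were called lower, as were noah-1 and noah-2 among 10 tested moult genes, while 10.4% of all tested genes were called lower.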

How the data were processed

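The authors deposited raw counts of reads per gene, 1 column per library, and per the submitters' processing notes used bcl2fastq, STAR 2.5.0a, HTSeq and WBcel235. They name no annotation release, strand setting or handling of reads matching several genes. The Ensembl 115 annotation (WBcel235) gave symbols, lengths and positions. It lacked 299 identifiers, which held 0.212% of counts and none of the 58 genes.

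The quasi-likelihood test of edgeR 4.0.16 (R 4.3.3) was run on the counts of all genes that passed filterByExpr (minimum count 10, total 15), using TMM scaling and Benjamini-Hochberg adjustment at 0.05. Cold in WT used the 12 WT libraries, with the experiment as a term. The remaining 4 comparisons shared 1 fit over the 12 libraries of experiment 1, and so share control samples. The SE given for edgeR estimates is the absolute log2 difference divided by the square root of the F statistic. It is unreliable for estimates near 0: in the paired fit of the difference msp-40 had 0.0017 with an SE of 3.34. DESeq2 1.42.0 and other settings were alternatives. The procedure was also tested on simulated data.

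Deviations from group means, compared across genes, correlated at 0.354 to 0.904 between same-numbered WT and ire-1 libraries of a condition (6 of 6 above 0.1), so the paired fit treats numbers as pairs of strains. Only 3 of the 6 WT libraries correlated best with the ire-1 library of their own number. In controls 2 and 3 the crossed values were 0.663 and 0.786 against 0.606 and 0.750, and in the cold WT 3 had 0.367 with ire-1 1 against 0.354, and WT 1 had 0.678 with ire-1 3 against 0.708. These crossed values also passed 0.1, so that limit did not set same-numbered libraries apart there. The pairing is thus a hint from the data, not from the labels. Control and cold libraries of a number did not pair throughout (4 of 9 above 0.1). WT 5, ire-1 3 and WT 6 had 0.789, 0.782 and 0.739, and WT 3 had 0.19. The rest ran from -0.891 (ire-1 2) to -0.0509 (WT 4). No library was a near copy of another in its group (smallest chi-square per degree of freedom 11.0).

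The members and lists were chosen with earlier results of these data known. Named members are the highest by mean CPM in each family and those with the lowest p in WT cold; list genes come from the 4 of highest mean CPM in each list or have a call. Others (ssq-3, msp-32, msp-58, msp-63, msp-74, msp-79, nspd-8, ssp-9, ssp-32, ssp-36, spe-44, perm-2, tni-3, lov-1, pkd-2 and the cwp genes) were chosen after their values were seen. List members not found in the annotation were left out. Sequences were not used here.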

Additional observations from a re-analysis of the deposited data

Results flagged for a closer look

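In groups of 4 to 10 libraries, a library was singled out where its gap to the nearest other, divided by the range of the group, passed Dixon's 95% critical value. For normally distributed values chance alone marks about 1 in 20 groups. The levels here were taken as CPM without logs and are skewed, so that rate need not hold. The genes examined were the highest by mean CPM in each family, a mean that the high libraries raise. Only WT control and WT cold (n = 6 each) were large enough, and 47 of 52 family sums and genes examined by group were marked, all of them for 1 library per group. The genes share these libraries, so the marks are not independent of each other.

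In WT control, replicate 1 lay far above the other 5. All 58 genes together stood at 1971 CPM in it, msp at 956, ssp at 107, ssq at 465, sss at 55.1 and nspd at 388. Among msp genes it held 75.3 CPM for msp-36, 63.2 for msp-33, 58.6 for msp-50 and 58.4 for msp-76. It held 52.9 CPM for msp-64, 51.7 for msp-40, 51.4 for msp-81 and 50.5 for msp-59. The ssq genes stood at 165 (ssq-2), 155 (ssq-4) and 108 CPM (ssq-1), and sss-1 at 55.1. The nspd genes stood at 95.03 (nspd-1), 78.7 (nspd-2), 60.7 (nspd-7) and 40.2 CPM (nspd-5), and the ssp genes at 22.8 (ssp-10), 17.9 (ssp-35) and 17.8 (ssp-34). ssp-37 was not marked in either group.

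In WT cold, replicate 2 lay above the other 5. All genes together stood at 543 CPM in it, msp at 271, ssp at 33.3, ssq at 137 and nspd at 88.8. It held 22.4 CPM for msp-36, 18.6 for msp-76, 18.3 for msp-50 and 16.3 for msp-33. It held 15.05 CPM for msp-40, 14.9 for msp-59, 14.9 for msp-81 and 12.9 for msp-64. The ssq genes stood at 51.1 (ssq-2), 40.6 (ssq-4) and 35.7 CPM (ssq-1). The nspd genes stood at 19.5 (nspd-1), 17.7 (nspd-2), 13.5 (nspd-7) and 9.70 CPM (nspd-5), and the ssp genes at 6.68 (ssp-10) and 5.64 (ssp-34). The sss sum and ssp-35 were not marked here. WT cold replicate 5 held 5.12 CPM of sss-1.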

How the results depend on the processing

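Counts of called family genes stayed at 0 under all settings in 4 comparisons; in WT cold leaving out 1 library gave 0 to 1 (ssp-37 without WT control 3). Medians of the tested genes moved most when 1 library was left out: -2.63 (without WT cold 5) to 0.98 (without WT control 1) for cold in WT, -4.66 to 3.57 in ire-1, -4.46 to 5.30 for the difference, -3.49 to 6.35 between strains in the control and -2.72 to 4.73 in the cold. Single genes turned direction in the same leave-one-out fits: msp-36 (-2.87 to 0.81 in WT cold, -4.60 to 3.32 in ire-1 cold, -4.26 to 4.98 for the difference, -3.31 to 5.92 and -2.73 to 4.78 between strains), msp-64 (-3.41 to 0.43), ssq-2 (-3.49 to 6.97 and -2.80 to 5.51) and ssp-37 (-0.25 to 0.88 for the difference, -0.81 to 0.32 in the cold). With a block within strain and number the difference had a median of -1.83 and msp-36 of -1.82. With the block within condition, added after the data were seen, msp-36 had -0.061, and with the number as a block in ire-1 0.49. Without the 4 high libraries, also chosen after the data were seen, the difference had -1.71 (msp-36 -1.71) and the strains in the control 2.42. The paired fit within condition called 390 genes against 9 without it in the control, 22 against 2 in the cold, and DESeq2 called 296 and 46. For cold in WT DESeq2 called 2611 genes against 1545, and in ire-1 342 against 8. The replicate block changed no other call for these genes. With the number as a block the median in ire-1 cold was 0.54. Other scaling factors (RLE, upper quartile), an unfiltered fit, DESeq2, single experiments and fits of 2 groups left the directions of the medians as they were. The causes were not tested. Depth limits genes near the level of 3 counts, 0.102 to 0.287 CPM per library.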

Other observations

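Several relatives outside the naming rule have pseudogene models, and RefSeq's WBcel235 table names them by position. The pseudogene that RefSeq calls sss-2 (chromosome V, 14346059 to 14346967) held 2367 counts in all. It stood at 20.6 CPM in WT control replicate 1, 31.0 in ire-1 control replicate 1, 25.8 in ire-1 cold replicate 2 and 3.74 in WT cold replicate 2, and at most at 1.89 elsewhere. Whether its reads are shared with sss-1 was not tested. The msp pseudogenes msp-42 and msp-71 held 104 and 146 counts, also mostly in those 4 libraries, while msp-52 held 18, msp-37 held 4, nspd-11 held 39 and nspd-12 held 0. RefSeq also gives the name ssp-28 to a protein-coding gene (WBGene00206525, chromosome III, 4189360 to 4190341) that was not among the 58, and whose symbol is spp-28 in the table of gene names used here. It held 344 counts, with 2 to 53 in each of the 18 libraries. RefSeq names the second gene with the symbol ssp-9 (WBGene00006040) ssp-11; it held 149 counts.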
